A study of Mus musculus with 6 samples.

Results

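Liver mRNA was examined for the 42 genes of the nuclear receptor superfamily listed by symbol, out of 24532 genes in the deposited table. The genes were taken by symbol, with no threshold on their values. All 6 livers came from wild-type C57BL/6 mice, 3 per group, and age and sex were not given in the sources used here. Every mouse, controls included, was fed for 4 weeks a diet holding DDC at 0.1%. DDC, short for diethoxycarbonyl-dihydrocollidine, is a porphyrin-raising compound used to model bile duct injury and cholestasis. During the last 2 weeks the mice were injected 2 times a week with normal saline (vehicle) or with 2 mg/kg of rhCYGB. The livers were collected 2 days later than the final dose. By its name rhCYGB is recombinant human cytoglobin, a haem globin found in hepatic stellate cells. No animal on a normal diet was analysed here, so the comparison is of rhCYGB with vehicle on top of DDC.

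Nuclear receptors are transcription factors that bind DNA through zinc fingers and, in most members, switch between corepressors and coactivators when a small lipophilic ligand enters their ligand-binding domain. In the liver they sense bile acids, oxysterols, fatty acids, steroid and thyroid hormones, retinoids and foreign chemicals, and set the genes for bile acid, lipid, glucose and drug metabolism. Many of the metabolic sensors act as heterodimers with a retinoid X receptor, and the small receptor Nr0b2 (SHP) has no DNA-binding domain and represses others by contact.

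The promoters of 2 members are shown because they were the shortest of the 42 transcripts and their values lay on opposite sides of the comparison, Nr1i3 higher and Nr0b2 lower in rhCYGB livers. Each line gives the 250 bases before the RefSeq start in build GRCm38.p6, from the plus strand, chr1:171213720-171213969 for Nr1i3 and chr4:133553126-133553375 for Nr0b2, with the palindrome CACGTG in capitals. CACGTG is the E-box letters read by basic helix-loop-helix factors, the clock proteins among them.
Nr1i3: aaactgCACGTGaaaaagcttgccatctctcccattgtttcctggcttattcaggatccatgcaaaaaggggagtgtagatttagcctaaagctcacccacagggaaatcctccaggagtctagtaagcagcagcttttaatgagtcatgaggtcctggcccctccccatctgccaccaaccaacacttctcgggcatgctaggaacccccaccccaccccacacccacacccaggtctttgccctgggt
Nr0b2: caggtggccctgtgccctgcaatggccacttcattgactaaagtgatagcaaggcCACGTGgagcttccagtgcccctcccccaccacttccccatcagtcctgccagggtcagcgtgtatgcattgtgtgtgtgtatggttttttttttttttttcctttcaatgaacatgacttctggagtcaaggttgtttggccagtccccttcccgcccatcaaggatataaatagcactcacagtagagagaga
Both windows held CACGTG, with its first base 244 bases before the start in Nr1i3 and 195 bases before it in Nr0b2. RefSeq promoters were found for 39 of the 42 members, 60 promoters in all, and CACGTG stood in 4 of them (6.67%), those of Nr0b2, Nr1i3, Rara and Thrb. Of 32851 promoters of the same length, 6.02% held it, a share close to that of the members. The receptors' own recognition letters AGGTCA, searched on both strands, stood in 10 of the 60 member promoters (16.7%) and in 4607 of the 32851 promoters (14.0%). Some receptors read a longer form of these letters, with 1 more base in front. The form AAGGTCA was held by 3 member promoters (5.0%, against 4.08% of all promoters). The form TAGGTCA was held by 0 of them, against 2.23% of all promoters. Neither window printed above held AGGTCA on either strand. A match describes letters and is no binding site.

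Each library held between 58422095 and 72431373 estimated read counts. The tests ran in edgeR (quasi-likelihood F test) on 14415 genes, with CPM being counts relative to library size scaled by edgeR's TMM factors, and FPKM being the deposited per-length value. Expression of all 8 hepatocyte markers was present in every library. Their summed values were 57383, 99073 and 86593 CPM in vehicle livers and 88023, 188987 and 199103 CPM in rhCYGB livers. Most of each sum was albumin. Cps1, another of these markers, was at 3093, 2284 and 2514 CPM in vehicle livers and 3444, 3045 and 5647 CPM in rhCYGB livers. The rhCYGB replicates 2 and 3 stood apart from the other 4 livers on the first principal component of all genes, at 61.6 and 130 against -81.3 to -24.5, and rhCYGB replicate 1 stood with the vehicle livers. Cholangiocyte markers summed to 1056, 949 and 956 CPM in vehicle livers and to 589, 374 and 195 CPM in rhCYGB livers. Spp1 made up most of these sums. The keratins Krt19 and Krt7 went the other way, with fitted log2 fold changes (rhCYGB over vehicle) of 0.62 and 0.41. Epcam, Sox9, Spp1 and Cftr had values below 0. Kupffer cell and macrophage markers (7 genes) summed to between 529.6 and 976 CPM, T, NK and B cell markers (6) to between 1.41 and 3.48, neutrophil markers (4) to between 38.3 and 71.3 and dividing-cell markers (5) to between 14.2 and 145, with overlapping groups. In bulk liver, fewer cells of a type and less RNA per cell cannot be told apart.

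Of the 42 members, 40 had a read in at least 3 libraries, and the same 40 were tested. Pgr, the progesterone receptor, had 2 reads in each of vehicle replicates 1 and 2 and 0 in the other 4 livers. Rorb, a retinal and neuronal orphan receptor, had 0 reads in all 6. By mean FPKM over the 6 livers, 13 members stood at 10 or above, 17 between 1 and 10, and 10 of the members counted in 3 or more livers stood below 1.

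Hnf4a, the receptor that sets hepatocyte identity, was the most abundant member, with 109, 94.4 and 109 FPKM in the vehicle livers and 125, 87.3 and 141 FPKM in the rhCYGB livers. It ranked first by FPKM in every liver except rhCYGB replicate 2, where Nr1i3 ranked first. Next in mean FPKM came Nr1i3, the xenobiotic sensor CAR, with 64.2 FPKM, a mean raised by rhCYGB replicates 2 and 3 (108 and 124 FPKM). By FPKM Nr1i3 ranked 5, 7 and 6 in the vehicle livers and 6, 1 and 2 in the rhCYGB livers. After it in mean FPKM came Rxra, the main hepatic dimer partner, with 53.7 FPKM. Nr2f6, an orphan repressor, followed at 49.8 FPKM and Nr1h3, the oxysterol receptor LXR alpha, at 47.5 FPKM, and the values of Rxra, Nr2f6 and Nr1h3 overlapped between neighbours in this order. Then came Nr1i2 (PXR), Nr1h2 (LXR beta), Nr1h4 (the bile acid receptor FXR) and Nr0b2. Their means lay between 22.5 FPKM and 30.7 FPKM, and their values in single livers overlapped. These 9 genes carried 70.0%, 76.0% and 76.0% of the summed FPKM of the 42 members in the vehicle livers and 73.2%, 83.2% and 84.6% in the rhCYGB livers. Summed FPKM itself ran from 507 to 594 and did not order the groups.

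**Figure D1:**
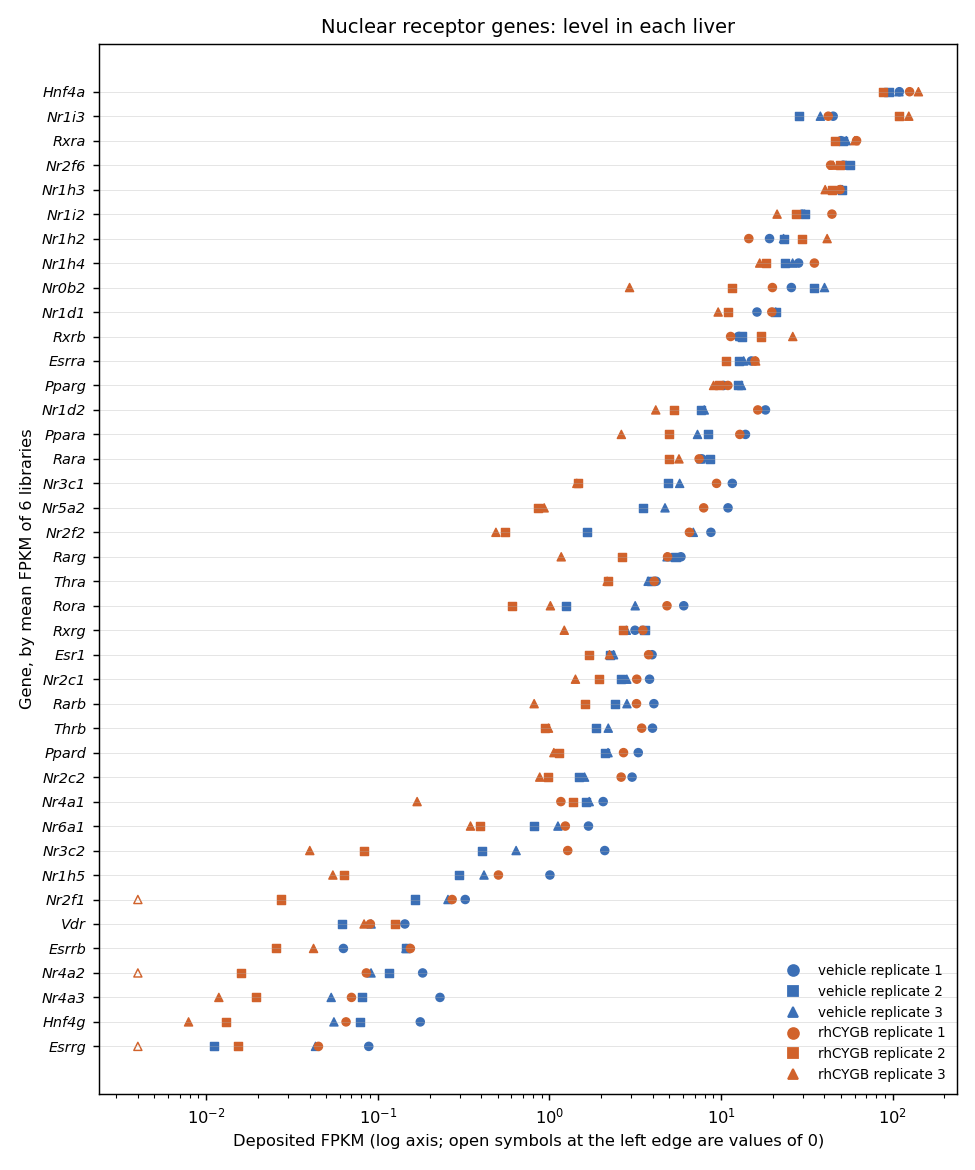
Deposited FPKM of each nuclear receptor gene in each of the 6 livers, on a log axis, ordered by the mean over the livers; symbols mark the replicates and colours the groups, and open symbols at the left edge are values of 0. Hnf4a leads at 87.3 to 141 FPKM, and Nr1i3 spreads from 28.4 to 124 FPKM.

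No member passed the test. At an adjusted p under 0.05 edgeR called 0 of the 40 members and 0 of the 14415 genes (0%), the lowest adjusted value being 0.523. Before adjustment 2 members (5%), Nr1i3 and Rxrb, had a p under 0.05, both with higher values in the rhCYGB livers. Of all genes 8.12% had such a p, 6.06% with higher and 2.06% with lower values, and of the members 0 had lower ones. DESeq2, the other count model run, gave an adjusted p to 5 members and to 1558 genes after its own filtering, and called 1 member, Nr1i3, and 65 genes (4.17%). Rxrb and Nr0b2 had no adjusted p there. Fitted log2 fold changes (rhCYGB over vehicle) were above 0 for 19 members and below 0 for 21 (52.5%, against 53.2% of all genes), with a median of -0.08 beside -0.06 over all genes tested. Neither share set the superfamily apart from the rest of the transcriptome.

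In 6 members (15%, against 6.02% of all genes) every rhCYGB liver had a higher CPM than every vehicle liver: Nr1i3, Nr1i2, Nr1h4, Hnf4a, Rxra and Esrra. In 2 members (5%, against 7.38% of all genes) every rhCYGB liver had a lower one: Nr0b2 and Nr4a2. By deposited FPKM the groups overlapped in all of those 6 members and stayed apart in Nr0b2 and Nr4a2. On the log2(TPM + 1) scale Nr1i2, Nr1h4, Hnf4a, Rxra and Esrra took fold changes below 0, whereas Nr1i3 stayed above 0 and both Nr0b2 and Nr4a2 below 0. That scale shifted the median of all genes from -0.06 to -0.51 and put 37 of the 40 members and 87.2% of all genes below 0. Upper-quartile scaling shifted the median to -0.18 and left 1 member higher (Nr1i3) and 1 lower (Nr0b2) at an unadjusted p under 0.05.

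**Figure D2:**
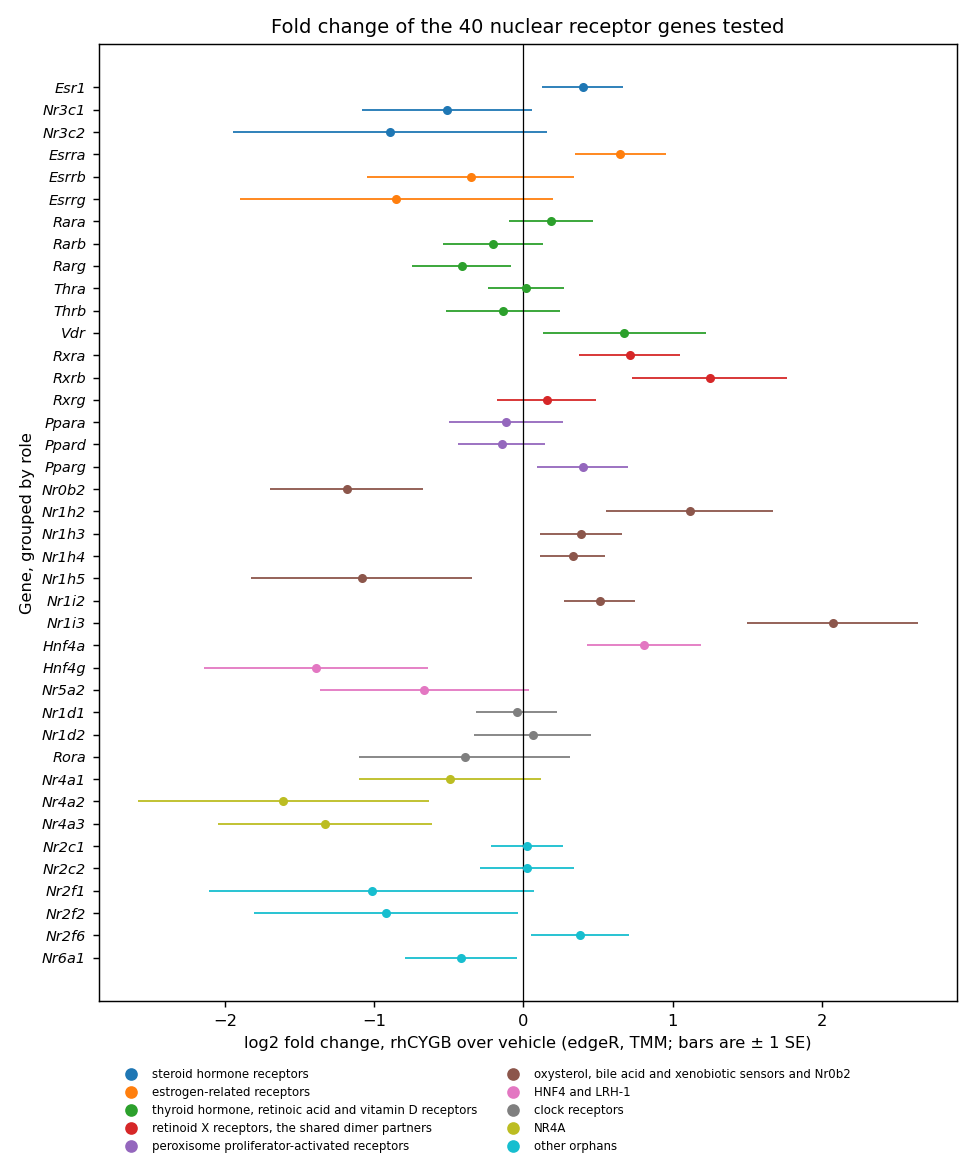
Fitted log2 fold change of rhCYGB over vehicle for the 40 nuclear receptor genes tested, grouped and coloured by role, with bars of 1 SE on each side. Nr1i3 has the highest value, 2.07, and Nr4a2 the lowest, -1.61, and no member passed the adjusted threshold.

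Among the sensors of oxysterols, bile acids and xenobiotics, 5 of 7 members had values above 0 (median 0.39), and Nr1i3 and Nr0b2 lay farthest from 0. Nr1i3 (mm10 chr1:171213970-171218845) encodes the constitutive androstane receptor, which moves to the nucleus on exposure to phenobarbital-like compounds and induces Cyp2b10. It had 44.1, 37.9 and 45.7 CPM in the vehicle livers and 50.7, 207 and 279 CPM in the rhCYGB livers. In CPM the vehicle livers were close together, rhCYGB replicate 1 lay just above them, and rhCYGB replicates 2 and 3 far above, without overlap. In FPKM the groups overlapped, at 44.9, 28.4 and 37.8 against 42.1, 108 and 124, with rhCYGB replicate 1 inside the vehicle range. The fitted value of Nr1i3 was a log2 fold change of 2.07 (SE 0.58), with an unadjusted p of 0.00816 and an adjusted p of 0.523 (edgeR). Leaving out rhCYGB replicate 1 gave 2.51 with an adjusted p of 0.0129, leaving out rhCYGB replicate 3 gave 1.60 with an adjusted p of 0.937, and DESeq2 gave an adjusted p of 0.0151. Within the summed FPKM of the superfamily Nr1i3 made up 7.72%, 5.47% and 6.79% in the vehicle livers and 7.08%, 21.4% and 21.3% in the rhCYGB livers.

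Nr1i3 shares 1043 bases of its deposited span with Tomm40l, a mitochondrial import gene on the opposite strand. In the GENCODE annotation, which holds longer models, the exons of these genes share 3304 bases. The library kit keeps strand, and whether the counting used it was not given in the sources used here. Reads of the overlap therefore cannot be assigned with certainty. Tomm40l had 13.5, 21.5 and 16.5 CPM in the vehicle livers and 16.8, 13.1 and 7.54 CPM in the rhCYGB livers, with rhCYGB replicates 2 and 3 the lowest of the 6, unlike Nr1i3.

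Nr0b2 (mm10 chr4:133553376-133556686) encodes SHP, the corepressor that FXR induces when bile acids accumulate and that lowers bile acid synthesis. It had 23.0, 42.5 and 44.1 CPM in the vehicle livers and 21.9, 20.2 and 6.06 CPM in the rhCYGB livers. Vehicle replicate 1 and rhCYGB replicates 1 and 2 lay within a narrow band, vehicle replicates 2 and 3 above it and rhCYGB replicate 3 well below it, with no overlap between the groups. The fitted value was a log2 fold change of -1.18 (SE 0.51), with an unadjusted p of 0.0522 and an adjusted p of 0.523 (edgeR), and it ran from -1.48 without rhCYGB replicate 1 to -0.80 without rhCYGB replicate 3. By deposited FPKM it ranked 8, 5 and 5 among the members in the vehicle livers and 8, 10 and 15 in the rhCYGB livers. Nr1i3 and Nr0b2 were near-equal in length, 1402 and 1282 bases, and differed in sign in all 17 settings run.

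Nr1h4 (mm10 chr10:89454234-89533622), the bile acid receptor FXR, had 41.0, 46.5 and 46.1 CPM in the vehicle livers and 61.8, 50.9 and 55.2 CPM in the rhCYGB livers. The lowest rhCYGB value exceeded the highest vehicle value by a few CPM, and the fold change was 0.33 (SE 0.22, unadjusted p 0.172), but -0.39 on log2(TPM + 1). Nr1i2 (mm10 chr16:38248349-38294824), the pregnane X receptor, which induces Cyp3a genes, had 52.1, 74.2 and 66.5 CPM in the vehicle livers and 95.5, 93.4 and 86.0 CPM in the rhCYGB livers. Its 3 rhCYGB livers were near one another and all above the vehicle livers in CPM, at a fold change of 0.51 (SE 0.24, unadjusted p 0.0662), which became -0.21 on log2(TPM + 1).

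Of the oxysterol receptors, which induce cholesterol efflux and fatty acid synthesis, Nr1h2 (mm10 chr7:44549616-44553965) had 26.9, 44.1 and 40.0 CPM in the vehicle livers and 25.1, 81.0 and 134 CPM in the rhCYGB livers. The rhCYGB replicate 1 was the lowest of the 6 livers and replicates 2 and 3 the highest, so the groups overlapped, and the fold change was 1.11 (SE 0.56, unadjusted p 0.0860) with all livers and 0.52 without rhCYGB replicate 3. Nr1h3, the hepatocyte and macrophage form, had 49.7, 50.8 and 50.7 FPKM in the vehicle livers and 49.2, 44.3 and 40.4 FPKM in the rhCYGB livers, so that in FPKM the rhCYGB livers lay just below the vehicle livers, whereas in CPM the groups overlapped at a fold change of 0.39. Nr1h5, FXR beta, a lanosterol sensor in rodents, was scarce at 1.01, 0.296 and 0.415 against 0.504, 0.0633 and 0.0547 FPKM, with values in rhCYGB replicates 2 and 3 below all others and rhCYGB replicate 1 among the vehicle livers. Its fold change was -1.08 (SE 0.74, unadjusted p 0.186).

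**Figure D3:**
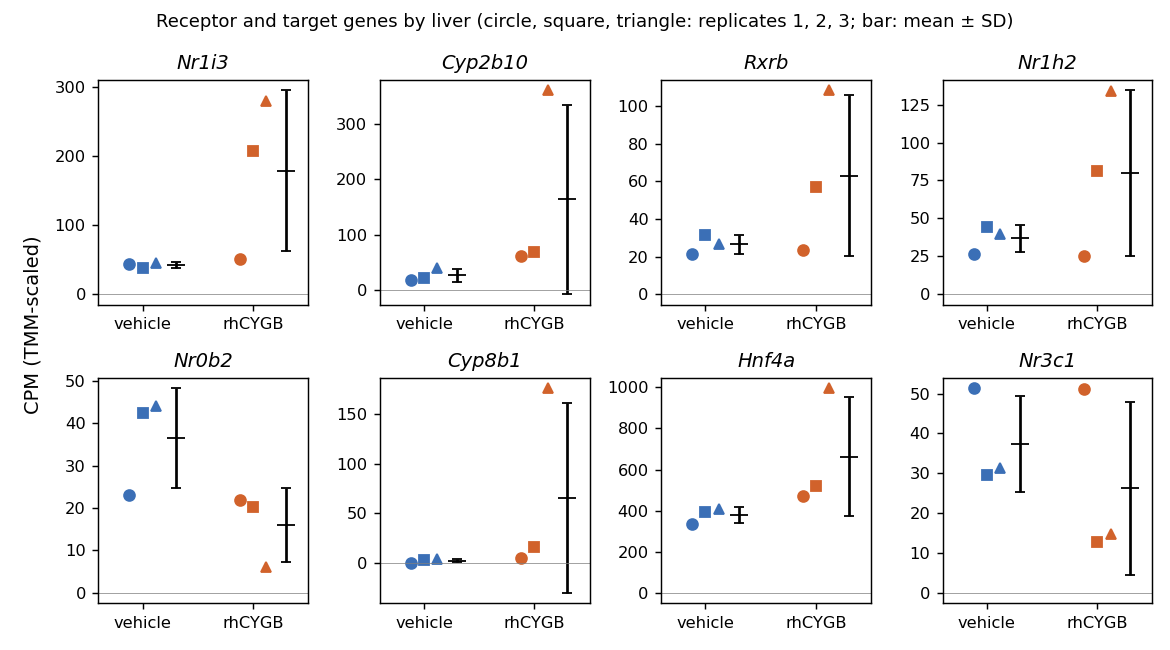
TMM-scaled CPM in each liver for 6 receptors (Nr1i3, Rxrb, Nr1h2, Nr0b2, Hnf4a, Nr3c1) and 2 target genes (Cyp2b10, Cyp8b1); circles, squares and triangles are replicates 1, 2 and 3, and the bar gives mean ± SD. In Nr1i3, Rxrb, Nr1h2 and Nr3c1 the rhCYGB replicate 1 sits with the vehicle livers, and in Nr0b2 rhCYGB replicate 3 is the lowest at 6.06 CPM.

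All 3 retinoid X receptors, the shared partners of the metabolic sensors, had fold changes above 0 (median 0.71), with Rxrg turning below 0 in 4 and Rxra in 2 of the 17 settings. Rxrb (mm10 chr17:34031812-34038403), the broadly expressed form, had 21.5, 31.5 and 26.7 CPM in the vehicle livers and 23.6, 56.9 and 109 CPM in the rhCYGB livers. Only rhCYGB replicates 2 and 3 lay above the vehicle range, and rhCYGB replicate 1 lay inside it. The fitted value was a log2 fold change of 1.25 (SE 0.52), with an unadjusted p of 0.0458 and an adjusted p of 0.523 (edgeR), 0.60 without rhCYGB replicate 3, and 1.64 with an adjusted p of 0.0214 without rhCYGB replicate 1. Rxra (mm10 chr2:27677201-27763319) had 182, 251 and 238 CPM in the vehicle livers and 274, 329 and 499 CPM in the rhCYGB livers, and all rhCYGB livers were above all vehicle livers. Its fold change was 0.71 (SE 0.34, unadjusted p 0.0704), whereas in FPKM the groups overlapped at 49.9, 51.2 and 53.6 against 61.5, 45.9 and 60.1 FPKM and log2(TPM + 1) gave -0.06. Rxrg, the muscle and brain form, was at 3.15, 3.58 and 2.80 against 3.50, 2.67 and 1.22 FPKM.

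Hnf4a (mm10 chr2:163506857-163572907) had 334, 393 and 409 CPM in the vehicle livers and 472, 519.9 and 996 CPM in the rhCYGB livers. The 3 rhCYGB livers were the highest 3, with replicate 3 far above the rest, at a log2 fold change of 0.81 (SE 0.38), with an unadjusted p of 0.0714 and an adjusted p of 0.523 (edgeR), 0.39 without that liver and -0.01 on log2(TPM + 1). Nr5a2, the LRH-1 receptor that drives bile acid synthesis genes together with Hnf4a and is repressed by SHP, had 28.4, 12.4 and 15.1 CPM in the vehicle livers and 25.3, 4.34 and 5.58 CPM in the rhCYGB livers. Vehicle replicate 1 and rhCYGB replicate 1 were both high and rhCYGB replicates 2 and 3 both low, so the groups overlapped widely, with a fold change of -0.66 (SE 0.70, unadjusted p 0.374). Without rhCYGB replicate 1 that value was -1.91 with an adjusted p of 0.0238. Hnf4g, the intestinal paralogue, had a mean of 0.0662 FPKM with reads in every liver.

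Of the peroxisome proliferator-activated receptors, which sense fatty acids, Pparg had the highest mean FPKM on this diet, with 10.3, 12.5 and 13.1 FPKM in the vehicle livers and 10.9, 9.67 and 9.03 FPKM in the rhCYGB livers. Its groups overlapped, and the fold change was 0.40 (SE 0.30, unadjusted p 0.231), or -0.42 on log2(TPM + 1). Ppara, the receptor behind fasting fatty acid oxidation in hepatocytes, was at 13.9, 8.34 and 7.28 FPKM in the vehicle livers and 12.8, 4.97 and 2.62 FPKM in the rhCYGB livers. In FPKM vehicle replicate 1 and rhCYGB replicate 1 carried the most Ppara, and rhCYGB replicates 2 and 3 the least. In CPM rhCYGB replicate 2 lay above vehicle replicate 3, at 50.3 against 46.6, and the fold change was -0.12. Ppard, the broadly expressed form, was high and low in the same livers at a lower level, 3.29, 2.09 and 2.19 against 2.70, 1.14 and 1.06 FPKM.

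Of the steroid hormone receptors, Nr3c1 (mm10 chr18:39410545-39487245), the glucocorticoid receptor, had the highest mean FPKM, and its reads came to 51.3, 29.6 and 31.2 CPM in the vehicle livers and 51.2, 12.7 and 14.7 CPM in the rhCYGB livers. The first replicates of both groups were nearly equal, the other vehicle livers were intermediate, and rhCYGB replicates 2 and 3 were the lowest, giving a fold change of -0.51 (SE 0.57, unadjusted p 0.395). Leaving out rhCYGB replicate 1 moved it to -1.45 with an adjusted p of 0.0236. Nr3c2, the mineralocorticoid receptor, had 6.00, 1.57 and 2.25 CPM in the vehicle livers and 4.50, 0.464 and 0.266 CPM in the rhCYGB livers. The same livers as for Nr3c1 were high and low, over a wider range, with a fold change of -0.90 (SE 1.05, unadjusted p 0.422) and of -3.15 (adjusted p 0.0267) without rhCYGB replicate 1. Esr1, the estrogen receptor of hepatocytes, was at 3.96, 2.26 and 2.36 against 3.78, 1.70 and 2.24 FPKM with interleaved groups. In CPM it was at 17.4, 13.6 and 12.9 against 20.3, 14.7 and 22.9. Its fold change was 0.40 and stayed above 0 in 15 of the 17 settings.

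Esrra (mm10 chr19:6910977-6921808), the estrogen-related receptor that works with the coactivator PGC-1 alpha on mitochondrial genes, had 23.5, 27.0 and 26.1 CPM in the vehicle livers and 30.3, 32.5 and 57.4 CPM in the rhCYGB livers. The groups did not overlap, rhCYGB replicate 3 was the highest, and the fold change was 0.65 (SE 0.31, unadjusted p 0.0704), against 0.30 without rhCYGB replicate 3 and -0.14 on log2(TPM + 1). Esrrb and Esrrg were near the limit of detection, with means of 0.0961 FPKM and 0.0339 FPKM. Esrrg had 0 reads in rhCYGB replicate 3.

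Rara led the thyroid hormone, retinoic acid and vitamin D receptors in FPKM and had 17.3, 26.3 and 21.0 CPM in the vehicle livers and 20.6, 21.9 and 30.9 CPM in the rhCYGB livers. Its groups interleaved, at a fold change of 0.19 (SE 0.28, unadjusted p 0.527), which passed to -0.02 without rhCYGB replicate 3. Rarb, itself a retinoic acid target, was at 4.06, 2.40 and 2.83 against 3.21, 1.61 and 0.814 FPKM, and Rarg, the form best known from skin, at 5.83, 5.42 and 4.84 against 4.87, 2.64 and 1.17 FPKM. In both, rhCYGB replicates 2 and 3 had the lowest FPKM. Thra was at 4.18, 3.92 and 3.76 against 4.07, 2.18 and 2.17 FPKM. In CPM its groups overlapped, at 7.11, 9.19 and 7.95 against 8.56, 7.33 and 8.66, with a fold change of 0.02. Thrb, the main hepatic thyroid hormone receptor, was at 3.98, 1.86 and 2.20 against 3.44, 0.946 and 0.986 FPKM, with a fold change of -0.14. Vdr, which hepatocytes hardly express, had a mean of 0.0993 FPKM.

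Of the clock receptors, Nr1d1 (mm10 chr11:98767932-98775377), the haem-binding repressor REV-ERB alpha, had 31.2, 54.5 and 49.5 CPM in the vehicle livers and 46.9, 41.2 and 42.8 CPM in the rhCYGB livers. The groups interleaved, at a fold change of -0.05 (SE 0.27, unadjusted p 0.870), and the sign turned to 0.03 when the trend with transcript length was removed. Nr1d1 shares 1075 bases of its span with Thra on the opposite strand, so the same limit on strand holds for both. Nr1d2, its paralogue, was at 18.1, 7.63 and 7.97 against 16.3, 5.28 and 4.16 FPKM, and Rora, which activates the sites that Nr1d1 represses, at 6.06, 1.25 and 3.16 against 4.84, 0.602 and 1.01 FPKM. The first replicate of each group was the highest in both. Fold changes were 0.06 for Nr1d2 and -0.39 for Rora.

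The NR4A receptors are immediate early genes that act without a known ligand, and all 3 had fold changes below 0 (median -1.33) in every setting that gave one. Nr4a1 had 3.56, 3.84 and 3.64 CPM in the vehicle livers and 2.49, 4.64 and 0.691 CPM in the rhCYGB livers. Only rhCYGB replicate 3 lay far from the rest, and the fold change was -0.49 (SE 0.61, unadjusted p 0.445). Nr4a2 had 35, 25 and 18 reads in the vehicle livers and 18, 4 and 0 reads in the rhCYGB livers. The reads of vehicle replicate 3 and rhCYGB replicate 1 were equal, and scaling by library size set these livers apart by a small margin, at 0.257 against 0.235 CPM. The fold change, -1.61 (SE 0.97, unadjusted p 0.141), rests on these few reads. Nr4a3 had 76, 30 and 18 reads in the vehicle livers and 26, 9 and 4 reads in the rhCYGB livers, with vehicle replicate 1 the highest and the groups overlapping.

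Nr2f6 led the other orphans with 51.5, 56.4 and 53.3 FPKM in the vehicle livers and 43.4, 49.1 and 44.8 FPKM in the rhCYGB livers. In FPKM the rhCYGB livers all lay below the vehicle livers, whereas in CPM the groups overlapped at a fold change of 0.38 (SE 0.33, unadjusted p 0.284) that became -0.40 on log2(TPM + 1). Nr2f2 (COUP-TFII), which is prominent in endothelial and mesenchymal cells, had 25.6, 6.60 and 25.0 CPM in the vehicle livers and 23.7, 3.17 and 3.32 CPM in the rhCYGB livers. Vehicle replicates 1 and 3 and rhCYGB replicate 1 held about the same level, vehicle replicate 2 less, and rhCYGB replicates 2 and 3 the least. Its fold change was -0.92 (SE 0.88, unadjusted p 0.330), and -2.56 (adjusted p 0.0301) without rhCYGB replicate 1. Nr2f1 had 41, 26 and 36 reads in the vehicle livers and 42, 5 and 0 reads in the rhCYGB livers, with the same 2 livers lowest, at a fold change of -1.02 (SE 1.09, unadjusted p 0.380). Stellate cell markers summed to 161, 149 and 122 CPM in vehicle livers and 142, 106 and 56.9 CPM in rhCYGB livers, with 7 of 7 detected and Ngfr at 0 in 1 library, and sinusoidal endothelial markers (7 of 7) to 153, 157 and 115 against 150, 133 and 71.9 CPM. Not every marker went with the sums. Des (stellate), Lyve1 and Clec4g (both endothelial) had fold changes above 0, at 0.24, 0.36 and 0.24, and the other markers of these lists below 0. The part of stellate and endothelial cells in the COUP-TF values was not tested. Nr2c1 and Nr2c2, the testicular receptors TR2 and TR4, had means of 2.64 FPKM and 1.77 FPKM, and Nr6a1, a germ cell and embryonic repressor, of 0.933 FPKM.

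A pattern ran across roles and followed transcript length. The 5 members under 2000 bases (Nr0b2, Nr1h3, Nr1i3, Pparg and Rxrg) had a median fold change of 0.39, with 4 above 0. The 18 members from 2000 to 4000 bases split 9 and 9, with a median of -0.01, and of the 17 members of 4000 bases or more 11 were below 0, with a median of -0.35. All genes tested ran alike, with medians of 0.38, -0.10 and -0.33 in the same bins, so the members followed the transcriptome here. Per doubling of length, the members' deviation in log2 CPM from their mean over the livers sloped by 0.52, -0.16 and 0.03 in the vehicle livers and by 0.39, -0.47 and -0.30 in the rhCYGB livers. The most positive slopes were those of vehicle replicate 1 and rhCYGB replicate 1, the most negative those of rhCYGB replicates 2 and 3. The part of length in single fold changes was not tested beyond removing the trend, after which Nr1i3 stood at 1.62 (adjusted p 0.455), Nr0b2 at -1.38, Hnf4a at 1.14 and Nr3c1 at -0.29.

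**Figure D4:**
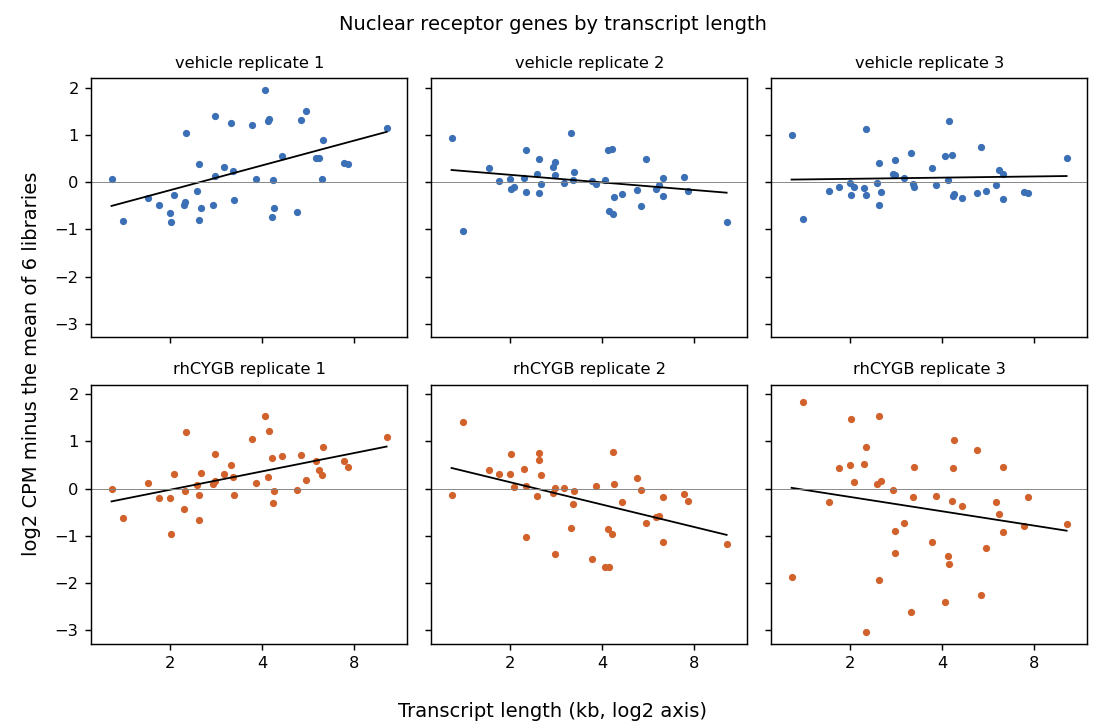
Each panel is a liver and each point a nuclear receptor gene tested, with transcript length in kb on a log2 axis and log2 CPM minus the mean of the 6 livers on the vertical axis; the line is a straight-line fit. The fit climbs by 0.52 per doubling in vehicle replicate 1 and 0.39 in rhCYGB replicate 1 and descends by values of -0.47 and -0.30 in rhCYGB replicates 2 and 3.

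The calls turned on rhCYGB replicate 1. Without that liver edgeR called 8 members (3 with higher and 5 with lower values). That was 20% of the members tested, against 3391 of 14647 genes (23.2%), so the members' share was near that of all genes. Nr1i3, Rxrb and Nr1h2 were higher and Nr3c1, Nr3c2, Nr5a2, Nr2f2 and Nr1h5 lower. Leaving out any other single liver left 0 members called. With sample quality weights in limma-voom, 9 members passed (3 higher and 6 lower), or 22.5% against 30% of all genes. Of these, 7 were among those 8, with Nr0b2 and Nr2f1 added and Nr2f2 missing. In direction, Nr1i3, Nr1h2 and Rxrb stayed above 0 in all 17 settings. Below 0 in all 17 were Nr0b2, Nr1h5, Nr2f2, Nr3c1, Nr3c2, Nr4a1, Nr5a2, Nr6a1, Ppard and Rarg.

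At the level of transcript models, 65 models of the members were tested among 19664, and 0 passed an adjusted p under 0.05 (0% of all transcripts, lowest adjusted value 0.456). At an unadjusted p under 0.05 stood 5 (7.69%, against 4.04% of all): the 3 models of Nr1i3 and 1 each of Pparg and Rarb. For Nr1i3, variant 1 carried most of the level at 31.9, 22.6 and 28.0 against 31.9, 80.2 and 88.8 FPKM, and fold changes were 1.92, 2.31 and 1.87 for variants 1, 2 and 3, so the 3 models had similar values. For Pparg, variant 1 was at 4.27, 5.34 and 5.14 against 8.04, 7.85 and 9.03 FPKM with no overlap between groups (fold change 1.27, edgeR unadjusted p 0.0122, adjusted p 0.802), while the gene total overlapped. Variant 4 of Pparg was at 4.04, 1.43 and 2.71 against 0.755, 0 and 0 FPKM. For Rarb, the beta4 model was at 0.680, 0.836 and 0.484 against 0.0334, 0 and 0 FPKM. That was 16.8%, 34.8% and 17.1% of the gene's FPKM in the vehicle livers. The beta3 model was at 0, 0 and 0 against 0, 1.49 and 0.700 FPKM, and beta2 at 3.38, 1.57 and 2.34 against 3.18, 0.118 and 0.114 FPKM. In rhCYGB replicates 2 and 3 most of the gene's FPKM was thus assigned to beta3. How StringTie divides reads among models that share exons limits such values. Hnf4a came mainly from variant 1, at 84.5, 70.5 and 72.4 against 94.1, 64.8 and 127 FPKM, and less from variant 3, which starts upstream, at 24.7, 23.9 and 36.1 against 31.1, 22.5 and 14.3 FPKM.

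Genes that the receptors are known to control were read from lists written with earlier results of these data known, so their direction is not independent evidence. None of their members passed the adjusted threshold in edgeR with all livers, and their shares at an unadjusted p under 0.05 are read against 8.12% of all genes. With 1 liver left out that background was 2.04% without vehicle replicate 1, 2.7% without vehicle replicate 3, 2.48% without rhCYGB replicate 3 and 42% without rhCYGB replicate 1. DESeq2 called 4 CAR and PXR targets, 3 PPAR-alpha targets and 3 glucocorticoid receptor targets among the 12, 12 and 5 that it adjusted. Of all genes that it adjusted it called 4.17%. It called none in the other lists, among which the clock and corepressor lists had no gene with an adjusted p. In edgeR without rhCYGB replicate 1 the calls were 6 of 15, 8 of 18 and 4 of 10, against 23.2% of all genes. Among the fits that leave out 1 liver, every list's count at that p was highest without rhCYGB replicate 1, and medians on log2(TPM + 1) were lower than those given here. On that scale the medians of the CAR and PXR, PPAR-alpha, clock, retinoic acid receptor and HNF4A lists turned to below 0. The summed hepatocyte markers given above, mostly albumin, were also highest in rhCYGB replicates 2 and 3. The part of hepatocyte markers in these values was not tested.

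Of the bile acid targets of FXR and SHP, 5 of 9 tested had an unadjusted p under 0.05, all with higher values, and the median fold change was 0.86 (0.03 on log2(TPM + 1)). The count was 1 without vehicle replicate 1 and 8 without rhCYGB replicate 1. The list was not split by whether the receptors induce or repress a gene, so its count and median give no direction of receptor activity. Cyp8b1, the sterol hydroxylase that makes cholic acid and is repressed by SHP, had 0.521, 3.09 and 3.81 CPM in the vehicle livers and 4.90, 16.5 and 176 CPM in the rhCYGB livers. Every rhCYGB liver exceeded every vehicle liver, and replicate 3 stood alone, at a fold change of 4.73 (SE 1.44, unadjusted p 0.0127). Slc10a1, the bile acid uptake carrier NTCP, was at 120.4, 207 and 221 against 232, 531 and 767 CPM (fold change 1.48), and Baat, which conjugates bile acids, at 119.7, 161 and 161 against 222, 257 and 403 CPM (fold change 1.00). Fetub, with the most reads of the list, had 323 ± 119 CPM (SD, n = 3) in the vehicle livers and 912 ± 675 CPM in the rhCYGB livers.

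Of the CAR and PXR targets, 6 of 15 had an unadjusted p under 0.05, all higher, with a median of 0.62 (-0.14 on log2(TPM + 1)), 2 without vehicle replicate 1 and 8 without rhCYGB replicate 1. Cyp2b10, the classic CAR target, had 17.8, 21.9 and 39.4 CPM in the vehicle livers and 61.1, 68.2 and 362 CPM in the rhCYGB livers. The groups did not overlap, and the fold change was 2.63 (SE 0.77, unadjusted p 0.0102). Unlike Nr1i3, Cyp2b10 was clearly above the vehicle range in rhCYGB replicate 1 and was much higher in replicate 3 than in replicate 2. Slco1a4, an organic anion carrier, was at 50.6, 59.5 and 74.1 against 109, 164 and 562 CPM (fold change 2.18), and Por, the electron donor of the cytochromes P450, at 252, 408 and 377 against 519, 862 and 1759 CPM (fold change 1.60). Gstm1, a glutathione transferase with the most reads of the list, had 3789.8 ± 1067 CPM (SD, n = 3) in the vehicle livers and 9764 ± 2689 CPM in the rhCYGB livers.

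Of the PPAR-alpha targets, 6 of 18 had an unadjusted p under 0.05, all higher, with a median of 0.60 (-0.14 on log2(TPM + 1)), 4 without vehicle replicate 1 and 11 without rhCYGB replicate 1. Cyp4a14, a fatty acid omega-hydroxylase, had 45.6, 46.6 and 94.4 CPM in the vehicle livers and 175, 436 and 956 CPM in the rhCYGB livers. All rhCYGB livers lay above all vehicle livers, at a fold change of 3.07 (SE 0.67, unadjusted p 0.00238). Cyp4a31 was at 5.15, 6.71 and 10.6 against 15.4, 23.2 and 34.3 CPM (fold change 1.70) and Angptl4, an inhibitor of lipoprotein lipase, at 20.7, 28.5 and 45.8 against 50.0, 269.7 and 289.8 CPM (fold change 2.68). The receptor Ppara itself had a fold change of -0.12.

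Of the glucocorticoid receptor targets, 3 of 10 had an unadjusted p under 0.05, all higher, with a median of 0.70 (0.02 on log2(TPM + 1)), 2 without rhCYGB replicate 3 and 6 without rhCYGB replicate 1. Fkbp5, the chaperone that restrains this receptor, had 54.3, 39.0 and 56.3 CPM in the vehicle livers and 88.9, 139.7 and 234 CPM in the rhCYGB livers. All rhCYGB livers lay above all vehicle livers, at a fold change of 1.63 (SE 0.40, unadjusted p 0.00411), while Nr3c1 itself was lowest in the 2 livers where Fkbp5 was highest. The metallothioneins, which also respond to metals, were at 38.2, 177 and 214 against 182, 1293 and 2078 CPM for Mt1 and 22.1, 119 and 159.7 against 170.5, 1056 and 1749.6 CPM for Mt2, with rhCYGB replicate 1 inside the vehicle range for Mt1 and just above it for Mt2. Tat, a tyrosine-degrading enzyme, had a fold change of 1.00 (SE 0.52, unadjusted p 0.0942).

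Of the 15 clock genes beside the receptors, 2 had an unadjusted p under 0.05 with higher values and 1 with lower ones (median 0.14), 0 without vehicle replicate 3 and 8 without rhCYGB replicate 1. Cry2 was at 17.0, 14.4 and 16.1 against 20.5, 29.3 and 59.2 CPM and Ciart at 7.19, 5.43 and 6.03 against 8.21, 14.2 and 11.2 CPM, both repressors of the clock's activators, and Npas2, an activator, was lower at 0.450, 0.951 and 1.20 against 0.456, 0.167 and 0.159 CPM. Tef, with the most reads among them, had a fold change of 0.42 (SE 0.27), which turned to -0.28 on log2(TPM + 1). The hour of collection was not given in the sources used here. Of 12 HNF4A targets 2 had such a p, Apoa2 (fold change 1.77) and Apom (fold change 1.67), with 11 above 0 and a median of 0.41, and the count was 0 without vehicle replicate 1 and 4 without rhCYGB replicate 1, the latter a smaller share than the 42% of all genes. Apoa1, the main protein of high-density lipoprotein, had 6788 ± 3247 CPM (SD, n = 3) in the vehicle livers and 20639 ± 12768 CPM in the rhCYGB livers.

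The other lists held little at that threshold. Of 11 LXR targets 0 had an unadjusted p under 0.05 in edgeR (median -0.45), against 7 without rhCYGB replicate 1. Scd1, the desaturase with the most reads among them, was at 10500.0, 8674 and 6523 against 12519, 2724 and 659 CPM. Of 5 thyroid hormone receptor targets 1 did, Hr, a corepressor, at 5.83, 4.01 and 3.82 against 3.26, 1.61 and 1.43 CPM with no overlap (fold change -1.11, SE 0.42, unadjusted p 0.0336), and all 5 were below 0 (median -0.53), with counts of 0 without vehicle replicate 1 and 5 without rhCYGB replicate 1. Thrsp, a lipogenic protein with the most reads of that list, had a fold change of -0.53 (SE 0.86). Of 5 retinoic acid receptor targets 0 did (median 0.35, and -0.47 without rhCYGB replicate 1, where the count was 3), and Tgm2, a transglutaminase, had a fold change of -0.82 (SE 0.38).

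**Figure D5:**
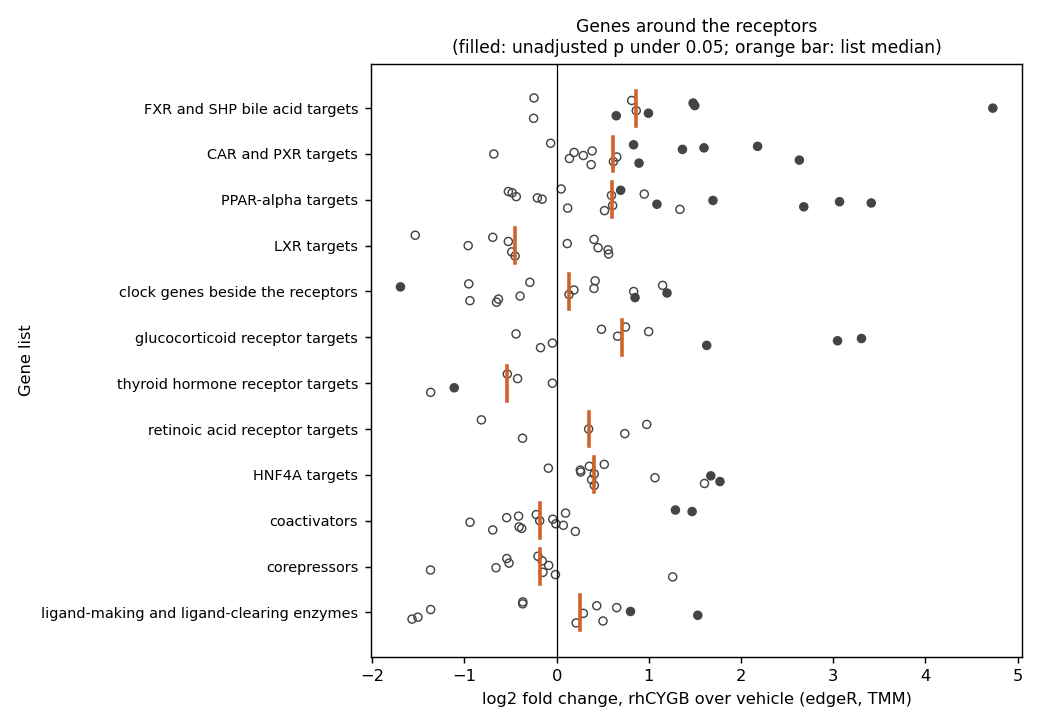
Fitted log2 fold change of rhCYGB over vehicle for each gene tested in 12 lists of receptor targets, clock genes, cofactors and ligand enzymes; filled points have an unadjusted p under 0.05 and the orange bar is the list's median. Medians run from -0.53 for thyroid hormone receptor targets to 0.86 for the bile acid targets of FXR and SHP, and no point passed the adjusted threshold.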

How the data were processed

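Poly(A) RNA of 6 livers, 3 per group, was sequenced from stranded libraries, per the labels' protocols. The submitters' processing notes name FastQC 0.11.7, HISAT2 2.1.0, StringTie 1.3.4d and mm10, and the annotation release and the strand setting of the counting were not given in the sources used here. The authors deposited estimated counts from StringTie, whole numbers per gene and per transcript, and FPKM values beside them. The depth was 58422095 to 72431373 counts per library, and the replicates are different animals by the labels.

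Each count table was fitted whole in edgeR 4.0.16 (R 4.3.3) with TMM, filterByExpr and the robust quasi-likelihood F test, adjusted by Benjamini-Hochberg over all genes or transcripts kept, with a threshold of 0.05. CPM uses the TMM-scaled totals. TPM was computed from the deposited FPKM. Alternatives were DESeq2 1.42.0, limma 3.58.1 (voom, quality weights, log2 TPM with pseudocounts of 1 and 0.1), other factors and filters, removal of the trend with length by loess, and leaving out each liver. The scripts were tested on simulated data.

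Fold changes with SE and p are given for members at an unadjusted p under 0.05 and for the member of highest mean FPKM in each role group. Nr0b2, Nr1h2, Nr1h4, Nr1h5, Nr1i2, Nr2f1, Nr2f2, Nr3c2, Nr4a2 and Nr5a2, and single fold changes of other members, were added after their values were seen. From each list of related genes the text names at most 3 genes at an unadjusted p under 0.05, by smallest p, and the gene of highest mean CPM. A gene that this rule names is not reported here. The members and lists were chosen with earlier results of these data known.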

Additional observations from a re-analysis of the deposited data

How the results depend on the processing

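The main fit called 0 genes and 0 members at an adjusted p under 0.05. DESeq2 called 65 genes, among them 1 member, and limma-voom with quality weights called 4323 genes, among them 9 members. Leaving out 1 liver gave from 0 to 3391 genes and from 0 to 8 members, the highest values without rhCYGB replicate 1, and an adjusted p of 0.1 as the threshold added no member. Members at an unadjusted p under 0.05 numbered 2 in the main fit (8.12% of all genes had such a p), 6 with DESeq2 (11.1%), 20 with quality weights (46%), 7 with the length trend removed (9.9%), and from 1 to 18 with 1 liver left out (2.04% to 42%). Other filters moved no call of a member. The members' median, -0.08, moved to -0.50 on log2(TPM + 1) and to -0.71 on log2(TPM + 0.1), and ran from -0.36 to 0.039 with 1 liver left out, against a replicate SD of 0.19. The cause of these differences was not tested.

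Signs turned for several genes near 0 and for several on the TPM scales. On log2(TPM + 1) the fold changes were -0.14 for Esrra, -0.015 for Hnf4a, -0.39 for Nr1h4, -0.21 for Nr1i2, -0.40 for Nr2f6, -0.42 for Pparg, -0.54 for Rara, -0.064 for Rxra, -0.23 for Aldh1a1 and -0.28 for Tef. On log2(TPM + 0.1) they were -0.15 for Esrra, -0.015 for Hnf4a, -0.40 for Nr1h4, -0.22 for Nr1i2, -0.40 for Nr2f6, -0.44 for Pparg, -0.59 for Rara, -0.065 for Rxra, -0.23 for Aldh1a1 and -0.29 for Tef. With the length trend removed Nr1d1 stood at 0.032 and Ncoa4 at 0.20. Hdac3 stood at 0.011 with DESeq2 size factors and 0.0032 in the DESeq2 test. With 1 liver left out, Hdac3 ran from -0.14 to 0.060, Ncoa4 from -0.39 to 0.25, Nr1d1 from -0.26 to 0.12 and Rara from -0.020 to 0.36.

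With 3 livers a group the spread between animals limits what can be called, and rhCYGB replicate 1 lay with the vehicle livers in many members. Nr4a2 and Nr2f1 rest on few reads, and a value of 0 there sets only an upper limit. Reads shared by overlapping genes, Nr1i3 with Tomm40l, Nr1d1 with Thra, Nr2c2 with Mrps25, Rarb with Top2b and Nr2f6 with Ocel1 among them, cannot be assigned with certainty. FPKM and TPM are both scaled by transcript length and library size, TPM to an equal total in every library. Signs differed between the scales as given above. CPM is also divided by the TMM factors, which TPM is not. These factors were 1.45, 1.07 and 1.18 in the vehicle livers and 1.18, 0.744 and 0.630 in the rhCYGB livers. A lower factor gives a higher CPM for the same reads, and the part of the factors in single fold changes was not tested. No paired analysis was possible because the replicate numbers follow the order of deposition and pair no animals across the groups.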

Other observations

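Nuclear receptors work through cofactors, and 25 of these were read in the same fit. Of 15 coactivators 2 had an unadjusted p under 0.05 in edgeR, both with higher values in the rhCYGB livers, while 10 of the 15 had fold changes below 0 (median -0.18, or -0.67 on log2(TPM + 1)). Those 2 were the PGC-1 coactivators of mitochondrial genes. Ppargc1a had 6.70, 4.14 and 6.10 CPM in the vehicle livers and 11.5, 9.17 and 26.3 CPM in the rhCYGB livers. Its rhCYGB livers all lay above its vehicle livers, and edgeR fitted 1.47 ± 0.46 (log2 fold change and SE) with a p of 0.0137, or 0.523 after adjustment. Ppargc1b was at 1.53, 1.08 and 0.955 against 2.52, 1.91 and 4.30 CPM, again with no overlap, at a fold change of 1.29. Leaving out vehicle replicate 2 gave 1 coactivator at that p, and leaving out rhCYGB replicate 1 gave 5, where 3.52% and 42% of all genes had such a p. Ncoa4, the coactivator with the most reads and also the receptor for ferritin turnover, had a fold change of -0.04. Of 10 corepressors 0 had such a p in edgeR (5 without rhCYGB replicate 1), 9 had fold changes below 0, and Hdac3, with the most reads, stood at -0.01.

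Enzymes that make or clear receptor ligands were tested for 12 of 15 genes, and 2 had an unadjusted p under 0.05 in edgeR, both with higher values (median of the list 0.25, and -0.58 on log2(TPM + 1)). Cyp27a1, which makes oxysterol and bile acid intermediates, had 184, 371 and 299.5 CPM in the vehicle livers and 283, 767 and 1419.9 CPM in the rhCYGB livers, at a fold change of 1.53 (SE 0.60, unadjusted p 0.0374, adjusted p 0.523). Cyp7b1, which clears oxysterols toward bile acids, had 12.4, 13.4 and 12.8 CPM in the vehicle livers and 15.7, 22.2 and 29.5 CPM in the rhCYGB livers. Its rhCYGB livers all lay above its vehicle livers, at a fold change of 0.80. The count was 0 without vehicle replicate 1 and 6 without rhCYGB replicate 1, where 2.04% and 42% of all genes had such a p. Aldh1a1, a retinoic acid-making dehydrogenase with the most reads of the list, had a fold change of 0.50 (SE 0.30).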
